A study of Nothobranchius furzeri with 25 samples.

Results

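Whole brains of the turquoise killifish Nothobranchius furzeri were compared between the youngest and the oldest age of the series, 5 and 39 weeks, across every gene that passed a filter on low counts. Of the 25 libraries of the series, 10 entered the comparison, 5 from each age, and each came from 1 animal. All animals were males of the strain MZM-04/10, with no treatment named in the labels. They were fasted and sampled at a single time of day. The study describes 5 weeks as the age of sexual maturity and 39 weeks as old age, so that the comparison spans both maturation and ageing and cannot tell them apart. Of 18228 transcript contigs with counts, 16484 were tested, and 1906 of these carry a gene name. The names held here run from A to C1QL4 in the alphabet, with MEX3A added through its identifier, so that most genes of the brain are counted below but not named.

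This annual fish lives in seasonal ponds, matures within weeks and ages within months, which makes it a vertebrate model of ageing. The brain of an adult teleost keeps dividing radial glia, the stem cells of the nervous system, and goes on adding neurons and growing, unlike that of a mammal. Division of these progenitors declines with age. Microglia, the resident macrophages of the brain, are known to change their expression in old brains of many vertebrates. Astroglia, which in mammals supply neurons with cholesterol carried on apolipoproteins, are known to change as well. According to the study teleost brains lack astroglia, and markers of these cells are read below together with those of radial glia. In RNA from whole brain, fewer cells of a type and less RNA per cell cannot be told apart.

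Levels are given in CPM, the counts of a gene scaled to the normalized size of its library, and a value after ± is the SD over 5 brains. Differences are log2 fold changes of 39 minus 5 weeks from edgeR's quasi-likelihood test, and a gene was called, or said to rise or fall, at an adjusted p under 0.05. Where 2 levels are set against each other, the first is that of 5 weeks. Values of single brains are listed in the order JM100, JM101, JM103, JM96 and JM97 for 5 weeks and JM1, JM12, JM13, JM15 and JM18 for 39 weeks. Each library is 1 biological replicate of its age. Total counts per library ran from 16501691 to 20996007 at 5 weeks and from 15877033 to 23985244 at 39 weeks, a difference that missed the threshold of 0.05 in an exact permutation test (p = 0.405, two-sided, 5 against 5 libraries). The 10 most abundant contigs held 2.78 to 3.26% of the counts at 5 weeks and 3.33 to 3.61% at 39 weeks (exact permutation p = 0.008, the smallest that 252 splits allow). Spearman's correlation between libraries was 0.9808 to 0.9914 within 5 weeks, 0.9761 to 0.9918 within 39 weeks and 0.9539 to 0.9757 between the ages.

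Between 5 and 39 weeks 6082 of 16484 genes were called, which is 36.9%. Of these, 2998 were higher at 39 weeks (18.2% of the genes tested) and 3084 were lower (18.7%). Most differences were small, with a median log2 fold change of 0.49 among the genes that rose and -0.52 among those that fell. A change of at least 2-fold was seen in 372 genes that rose and 540 that fell, and one of at least 4-fold in 27 and 161. The tail of large changes therefore lay on the side of the genes that were lower in old brains. Over all genes the median log2 fold change was 0.007, and 5% lay below -0.84 and 5% above 0.79. In 3993 genes (24.2%) the 5 values of one age did not overlap those of the other, 1965 of them higher (11.9%) and 2028 lower (12.3%) at 39 weeks. When the test was made against a change of 1.5-fold, 602 genes were called, 194 higher and 408 lower. Among the 1906 genes with a name, 335 were higher and 331 lower.

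**Figure D1:**
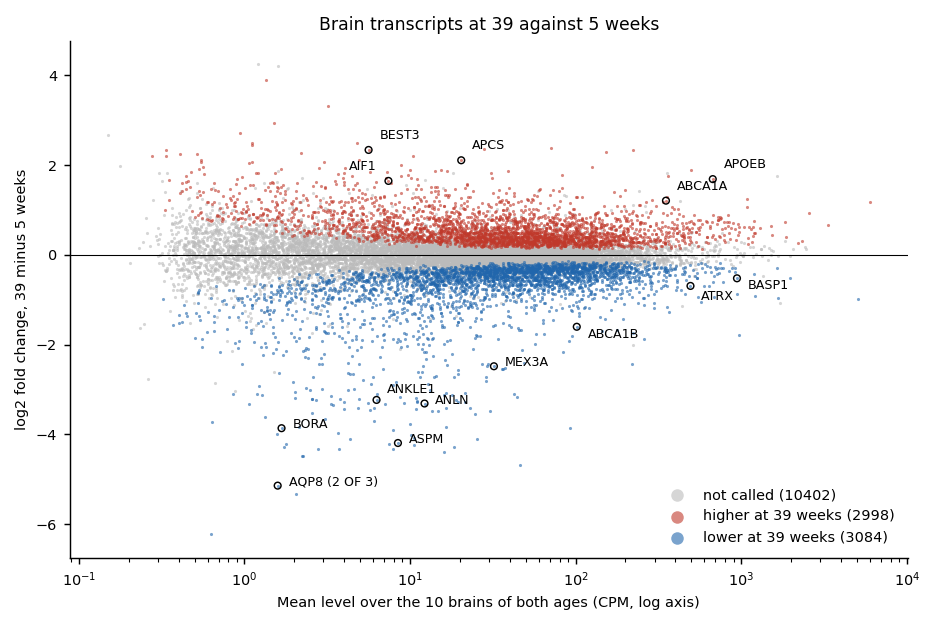
Log2 fold change of 39 minus 5 weeks against the mean level over the 10 brains in CPM (log axis), 1 point for each of the 16484 genes. The 2998 genes called higher are red, the 3084 called lower blue, and the rest grey. The points farthest from 0 are blue, with AQP8 (2 OF 3), ASPM, BORA, ANLN and ANKLE1 among those with a name.

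The gene lists described here hold 589 entries with a name, of which 567 passed the filter, and a gene may stand in several lists. They were chosen with earlier results of these data known, so that their shares are a description and not a test. The percentages after list counts are shares of the tested members, to be read beside 18.2% of all genes higher and 18.7% lower, and a share near these is not a result about the list. Markers of cell types were read first, as the sum of CPM over each list. The neuronal markers of a brain were present at both ages, with a sum of 4174 to 4640.5 CPM at 5 weeks and 3035 to 3827 at 39 weeks. Of these markers 4 of 7 were lower (57.1%), or 2 without JM103 or without JM15. All 7 had a log2 fold change below 0, with a median of -0.3. The sum weights abundant genes most, and it was not split by member. Radial glia and astroglia markers summed to 2832 to 3253 against 3738 to 4316 CPM (3 of 8 higher, 1 lower), with a median log2 fold change of 0.13. Most of these sums came from APOEB and ALDOCB, and the other 6 members summed to 644 to 693 against 472 to 626 CPM. Without both genes the ranges of the sum thus lay apart the other way. Of the 8 members 7 had a log2 fold change above 0 and 1 below it, at -0.89, so that this lower sum does not stand for most members. ASPA, which cleaves N-acetylaspartate in oligodendrocytes and was the only marker of these cells with a name, was measured at 24.8, 24.6, 29.9, 22.9 and 29.2 CPM at 5 weeks and 83.6, 58.1, 42.0, 50.8 and 55.8 CPM at 39 weeks, without overlap (log2 fold change 1.14 with a standard error of 0.19, adjusted p = 5.8e-05). The 4 microglia markers summed to 21.5 to 27.7 against 33.9 to 70.4 CPM.

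Transcripts of tissues next to the brain were also counted. Skeletal muscle markers summed to 102 to 576 CPM at 5 weeks, with the highest value in brain JM96, and to 100.1 to 253 CPM at 39 weeks. Of 7 muscle markers ACTC1B, a muscle actin, was called lower (log2 fold change -0.97, adjusted p = 0.014), with 437 CPM in JM96 and 90.3 to 232 in the other young brains, and this call ended in 3 of 17 other settings of the analysis, of which leaving out JM96 was 1. The muscle calcium pump ATP2A1 was called higher through 1 brain, JM15, at 18.8 CPM where the other old brains had 1.17 to 3.38, and this call ended in 9 of the 17 settings. Both red blood cell markers were lower, the globin BA1 (69.4, 54.1, 107, 52.6 and 62.8 CPM at 5 weeks and 13.1, 2.14, 12.0, 5.00 and 75.0 at 39 weeks, log2 fold change -1.67) and the erythroid enzyme ALAS2 (28.8, 26.8, 36.2, 23.2 and 28.5 against 8.66, 6.61, 8.37, 6.12 and 20.7 CPM, log2 fold change -1.5). The old brain JM18 lay in the young range for BA1, and the call of BA1 ended in 8 of 17 settings. Plasma proteins made in liver summed to 2732 to 3946 against 2154 to 3278 CPM, and AMBPL alone of 8 was called, as higher (log2 fold change 0.84). Markers of retina and lens summed to 10.8 to 16.7 against 11.3 to 22.6 CPM, with the lens filament gene BFSP1 higher (log2 fold change 1.21, a call lost in 5 of 17 settings) and the cone arrestin ARR3 (1 OF 2) lower (log2 fold change -1.28) out of 5. Those of pineal summed to 3.34 to 4.52 against 3.15 to 5.62 CPM (none of 3 called, or 1 without JM13) and of skin, bone and fin to 137 to 192 against 106 to 153 CPM (none of 5 called). The part of these tissues in the results was not tested.

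Genes of mitosis and cytokinesis were lower in old brains. In this list 0 of 11 tested members were higher and 10 lower (90.9%) at 39 weeks, with a median log2 fold change of -1.24, against 18.7% of all genes lower and a median of 0.007. None of the 10 overlapped between the ages, where 12.3% of all genes were lower without overlap. ASPM, a protein of the spindle poles that is needed for symmetric division of neural progenitors in mammals, was at 27.0, 10.2, 12.6, 14.8 and 15.8 CPM in the young brains. In the old brains it was at 0.781, 0.315, 0.489, 1.04 and 1.58 CPM (log2 fold change -4.19 with a standard error of 0.56, adjusted p = 3.8e-06). The lowest young brain thus held several times the transcript of the highest old brain. BORA, an activator of the mitotic kinase Aurora A, was at 4.81, 2.83, 4.00, 2.18 and 1.94 CPM at 5 weeks and 0.130, 0.0630, 0.272, 0.125 and 0.417 CPM at 39 weeks (log2 fold change -3.86 with a standard error of 0.45, adjusted p = 6e-07). ANLN, the anillin that scaffolds the cleavage furrow, was at 35.1, 12.7, 28.2, 21.6 and 13.8 against 1.30, 1.01, 3.97, 1.75 and 3.00 CPM (log2 fold change -3.31 with a standard error of 0.47, adjusted p = 8.4e-06). Brain JM100 had the highest level of all of these among the young brains.

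The 2 Aurora kinases with a name were lower as well. AURKA, which acts at the centrosome and spindle poles, was at 6.09 to 13.6 CPM in the young and 2.47 to 3.15 CPM in the old brains (log2 fold change -1.66 with a standard error of 0.24, adjusted p = 8.6e-06). AURKC, named after the kinase of the chromosomal passenger complex of germ cells in mammals, was at 9.27 to 22.9 against 3.39 to 5.35 CPM (log2 fold change -1.76 with a standard error of 0.18, adjusted p = 9.2e-08). ARHGAP11A, a GTPase-activating protein of cytokinesis, fell from 10.6 ± 2.34 to 4.45 ± 1.06 CPM (log2 fold change -1.24). The spindle checkpoint genes BUB1B, BUB3 and BUB1 fell less, at log2 fold changes of -0.94, -0.70 and -0.40. BOD1L, a protein of replication fork protection, was lower too (log2 fold change -0.44), while BOD1, a chromosome biorientation factor, missed the threshold (adjusted p = 0.068). The log2 fold changes of the list ran from -0.28 for BOD1 to -4.19 for ASPM.

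MEX3A, an RNA-binding protein of stem and progenitor cells, was lower as well. It was at 65.8, 50.2, 40.8, 59.6 and 56.3 CPM in the young brains and at 8.01, 6.43, 14.5, 7.24 and 12.4 CPM in the old ones (log2 fold change -2.48 with a standard error of 0.26, adjusted p = 1.5e-07). Every old brain lay far below the lowest young brain. The anaphase-promoting complex, the ubiquitin ligase that ends mitosis and also acts in neurons, was measured through 8 subunits, of which ANAPC2 alone was called (1 was called higher without JM103), at 39.6, 38.7, 35.5, 36.4 and 28.5 against 29.9, 31.9, 20.7, 24.1 and 21.3 CPM (log2 fold change -0.48 with a standard error of 0.17, adjusted p = 0.032). This call ended in 6 of 17 settings, where adjusted p reached 0.082. ANAPC1 was at 49.99 ± 5.64 against 51.0 ± 3.69 CPM (adjusted p = 0.83) and ANAPC11 at 37.2 ± 3.02 against 39.4 ± 3.98 CPM (adjusted p = 0.43).

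**Figure D2:**
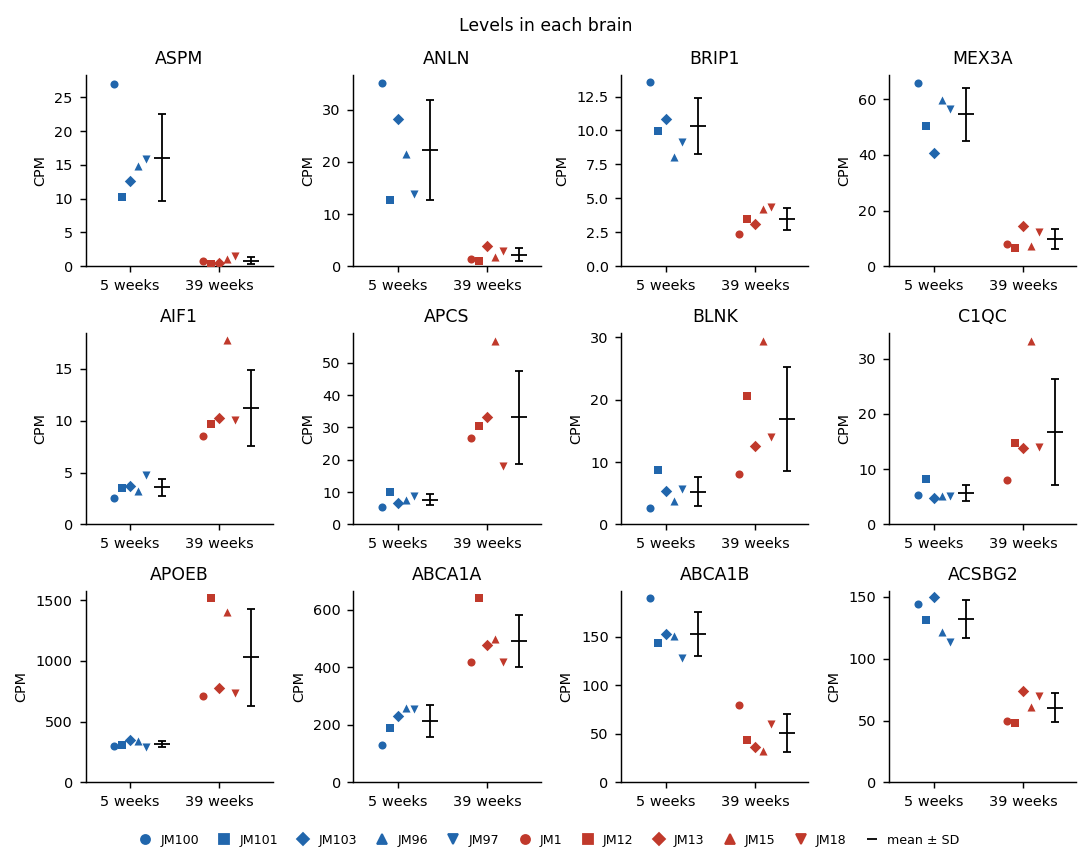
CPM in each of the 10 brains for 12 genes, with the 5 brains of 5 weeks in blue and the 5 of 39 weeks in red, 1 symbol for each brain, and the mean ± SD beside them. ASPM, ANLN, BRIP1, MEX3A, ABCA1B and ACSBG2 are lower and AIF1, APCS, APOEB and ABCA1A higher in old brains without overlap. In BLNK and C1QC the ranges overlap, and brain JM15 stands highest.

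Of the genes of DNA damage signalling and repair, 4 of 21 tested members were higher (19.0%) and 6 lower (28.6%) at 39 weeks, with a median log2 fold change of -0.13, so that the share that rose was near that of all genes. BRIP1, a helicase of fork repair, was at 13.6, 9.96, 10.9, 8.07 and 9.18 CPM at 5 weeks and 2.41, 3.46, 3.10, 4.21 and 4.33 CPM at 39 weeks (log2 fold change -1.55 with a standard error of 0.20, adjusted p = 2.7e-06). BARD1, a subunit of a ubiquitin ligase of homologous recombination, fell from 3.86 ± 0.871 to 1.73 ± 0.523 CPM (log2 fold change -1.14). ATAD5A, which helps to unload the sliding clamp PCNA after replication, was at 28.8 to 42.1 against 10.1 to 19.7 CPM (log2 fold change -1.08 with a standard error of 0.15, adjusted p = 5.4e-06). The helicase BLM was called lower (log2 fold change -0.21), but the call ended in 12 of 17 settings. Of the genes that rose, APLF, an end-joining factor, was at 10.3 to 14.3 against 15.3 to 23.5 CPM (log2 fold change 0.53), and ATMIN, a zinc-finger factor of damage signalling, overlapped between the ages at 47.0 to 66.0 against 52.7 to 110.4 CPM (log2 fold change 0.60, adjusted p = 0.0027). ANKRD32 and ATRIP rose at log2 fold changes of 0.44 and 0.27, and the call of ANKRD32 ended in 6 settings. Without the young brain JM100, 2 members were called higher.

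Chromatin regulators were the longest list. Here 7 of 51 tested members were higher (13.7%) and 18 lower (35.3%) at 39 weeks, with a median log2 fold change of -0.18. ATAD2B and ATAD2, bromodomain ATPases, fell from 36.4 ± 7.64 to 13.8 ± 2.85 CPM (log2 fold change -1.40) and from 51.0 ± 9.04 to 28.3 ± 5.33 CPM (log2 fold change -0.85). AEBP2, a cofactor of the Polycomb repressive complex that methylates histone H3, had 2 contigs, and both were lower (log2 fold changes -1.05 and -0.80). ATRX, a remodeller of heterochromatin, was among the named genes with the largest loss in CPM. It was at 687, 644, 519, 587 and 613 CPM at 5 weeks and 398, 414, 370.3, 344 and 368 CPM at 39 weeks (log2 fold change -0.69 with a standard error of 0.09, adjusted p = 4.9e-06). A second contig named ATRX (2 OF 2) was at 27.2 to 32.2 against 31.9 to 35.8 CPM and was not called (adjusted p = 0.071). BPTF, the large subunit of a nucleosome remodelling factor, fell with a log2 fold change of -0.86. The ARID subunits of the SWI/SNF complexes ARID1AA, ARID1AB, ARID1B and ARID2 were lower at log2 fold changes of -0.40, -0.48, -0.54 and -0.29. Among the 7 that rose were ARID5A (log2 fold change 0.88), the deubiquitinase BAP1 (log2 fold change 0.34) and BMI1B, a Polycomb protein (log2 fold change 0.32). ASH1L, a histone methyltransferase, was at 217 ± 15.9 against 207 ± 26.2 CPM and missed the threshold (adjusted p = 0.73). Without the young brain JM100, 4 members were called higher in place of 7.

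Transcription factors of neuronal fate were lower where they were called. In this list 0 of 17 tested members were higher and 8 lower (47.1%) at 39 weeks, with a median of -0.38, against 18.7% of all genes lower. A member was called higher without JM96 and without the 6 libraries that have w0w1 in their titles, a label whose meaning is not known. Of the brains compared, JM96 at 5 weeks and JM12 at 39 weeks carry this label, and the other libraries with it are of the ages between. The proneural factors, which commit progenitors to a neuronal fate, led the list. ASCL1B was at 25.8, 12.9, 24.7, 15.2 and 14.7 CPM in young and 3.97, 2.14, 7.61, 5.83 and 7.75 CPM in old brains (log2 fold change -1.76 with a standard error of 0.30, adjusted p = 8.5e-05). ASCL1A was at 12.1, 8.13, 10.6, 9.39 and 9.13 against 2.54, 8.69, 2.34, 2.96 and 2.42 CPM (log2 fold change -1.40 with a standard error of 0.39, adjusted p = 0.0074), and the old brain JM12 lay among the young ones while the other 4 lay far below them. ATOH1C, of the family that specifies granule neurons of the cerebellum, was at 5.14, 4.18, 3.60, 4.24 and 3.41 against 0.195, 0.630, 1.63, 1.08 and 3.00 CPM (log2 fold change -1.60 with a standard error of 0.44, adjusted p = 0.0063). BCL11 zinc-finger factors act in differentiating and mature projection neurons of mammals, and 4 contigs of them were lower. BCL11AB was at 33.5 to 48.1 against 12.4 to 18.4 CPM (log2 fold change -1.27 with a standard error of 0.13, adjusted p = 1.5e-07) and BCL11B (2 OF 2) at 32.2 to 41.6 against 14.5 to 21.2 CPM (log2 fold change -0.98). BCL11AA and BCL11BA fell at log2 fold changes of -0.38 and -0.45. BARHL2 fell with a log2 fold change of -0.52, whereas BHLHE22 was at 69.7 ± 4.08 against 68.9 ± 13.8 CPM (adjusted p = 0.97) and BARHL1 at 62.2 ± 7.56 against 63.6 ± 7.42 CPM (adjusted p = 0.84).

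Genes of microglia, of immune cells carried in blood and of innate immunity, among them a serum pentraxin, were higher in old brains. In this list 10 of 17 tested members were higher (58.8%) and 0 lower at 39 weeks, with a median of 0.87, against 18.2% of all genes higher. APCS, the serum amyloid P component, a pentraxin of innate immunity, was at 5.47, 9.90, 6.57, 7.50 and 8.90 CPM at 5 weeks and 26.8, 30.6, 33.3, 56.8 and 18.1 CPM at 39 weeks (log2 fold change 2.11 with a standard error of 0.29, adjusted p = 6.4e-06). AIF1, the actin-binding protein used to mark microglia, was at 2.57, 3.54, 3.71, 3.26 and 4.797 against 8.53, 9.70, 10.2, 17.7 and 10.0 CPM (log2 fold change 1.65 with a standard error of 0.22, adjusted p = 4e-06). Neither gene overlapped between the ages, and in both the old brain JM15 was highest. BLNK, an adaptor of B cell and myeloid receptors, was at 2.63, 8.78, 5.37, 3.78 and 5.72 against 8.01, 20.5, 12.5, 29.4 and 13.96 CPM (log2 fold change 1.69 with a standard error of 0.32, adjusted p = 0.00023). C1QC, a chain of complement C1q that microglia make, was at 5.25, 8.19, 4.68, 5.15 and 5.07 against 7.94, 14.8, 13.8, 33.3 and 14 CPM (log2 fold change 1.57 with a standard error of 0.37, adjusted p = 0.002). In both of these the old brain JM1 lay within the young range, held up by brain JM101.

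BATF, a transcription factor of the AP-1 family in immune cells, was at 5.01 to 6.81 against 10.8 to 19.4 CPM (log2 fold change 1.29 with a standard error of 0.43, adjusted p = 0.021). Its call ended when the 6 w0w1 libraries were left out (adjusted p = 0.07). BIN2B, a membrane-bending protein of blood cells in mammals, was at 3.66 to 5.08 against 6.002 to 11.2 CPM (log2 fold change 1.03). The GTPase-activating proteins ARHGAP15, ARHGAP25 and ARHGAP30 rose at log2 fold changes of 0.96, 0.87 and 0.75, and the integrin adaptor APBB1IP with 0.43, and the calls of ARHGAP30 and APBB1IP ended in 8 and 5 of 17 settings. C1QB, another chain of C1q, was at 6.30 to 9.48 against 7.56 to 10.0 CPM and missed the threshold (adjusted p = 0.099), as did ALOX5 (1 OF 4), a lipoxygenase (adjusted p = 0.81). Over the settings other than the test against 1.5-fold, 7 to 11 members were called higher and 0 lower. Both red blood cell markers were called lower at 39 weeks, with the limits given above for BA1. Whether the blood left in the brains bears on this list was not tested.

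Among apolipoproteins, the carriers of lipid between cells, 3 of 16 tested members were higher (18.8%) and 0 lower at 39 weeks, or 5 higher without JM13 and 1 lower without JM15. APOEB, 1 of the apolipoprotein E genes of fish and a product of glia, was at 303, 308, 349, 340.3 and 295 CPM in young and 711, 1516, 774, 1402 and 739 CPM in old brains (log2 fold change 1.69 with a standard error of 0.23, adjusted p = 4.9e-06). The young brains were close together, and among the old brains JM12 and JM15 stood well above the other 3. APOC1L was at 5.25 to 14 against 13.3 to 32.9 CPM with an overlap (log2 fold change 1.36 with a standard error of 0.32, adjusted p = 0.0021), and APOF at 104 to 116 against 145 to 175 CPM without (log2 fold change 0.51 with a standard error of 0.11, adjusted p = 0.0011). APOA1, the main protein of high-density lipoprotein, was at 1504 ± 260.2 against 1388 ± 141 CPM and APOM at 110.1 ± 10.6 against 92.4 ± 22.1 CPM, and both missed the threshold (adjusted p = 0.59 and 0.2). APOA1 is also on the list of plasma proteins given above.

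Of the transporters of sterols and lipids of the ABC family, 2 of 10 tested members were higher (20.0%) and 3 lower (30.0%) at 39 weeks, the share higher being near that of all genes. Without JM103 an 11th member passed the filter, and 5 of 11 were lower. ABCA1A and ABCA1B, both copies of the cholesterol exporter that loads apolipoproteins, differed in direction. ABCA1A was at 128, 189, 231, 258 and 256 CPM at 5 weeks and 417, 640.0, 479, 499 and 418 CPM at 39 weeks (log2 fold change 1.21 with a standard error of 0.25, adjusted p = 0.00055). ABCA1B was at 189, 144, 153, 151 and 128 against 79.8, 43.3, 36.6, 32.2 and 60.3 CPM (log2 fold change -1.60 with a standard error of 0.49, adjusted p = 0.014), and this call ended without the w0w1 libraries (adjusted p = 0.056). The 2 are related copies of a gene, and whether reads of one were counted for the other was not tested. ABCA7 fell from 30.5 ± 0.972 to 16.9 ± 2.97 CPM (log2 fold change -0.85) and ABCA5 from 98.0 ± 3.44 to 81.3 ± 3.45 CPM (log2 fold change -0.27), while ABCG4A, a sterol exporter of neurons and glia, rose from 146 ± 13.7 to 195 ± 25.1 CPM (log2 fold change 0.41).

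Enzymes that make fatty acids and sterols were counted together with ligases that activate fatty acids, and the list was mostly lower. Of 13 tested members 2 were higher (15.4%) and 7 lower (53.8%), with a median of -0.27. ACLYA, the ATP-citrate lyase that supplies acetyl-CoA to the cytosol, was at 187, 149.9, 144, 148 and 135 against 87.8, 87.6, 109.7, 101.2 and 108 CPM (log2 fold change -0.63 with a standard error of 0.09, adjusted p = 1.1e-05). ACACA, the acetyl-CoA carboxylase that commits it to fatty acid synthesis, fell with a log2 fold change of -0.49 and ACAT2, which feeds it to sterol synthesis, with -0.52. Of the ligases that activate long-chain fatty acids, ACSBG2 fell most, at 114 to 149.8 CPM in young and 47.8 to 73.7 CPM in old brains (log2 fold change -1.12 with a standard error of 0.14, adjusted p = 1.8e-06), and ACSL3A and ACSL6 fell at log2 fold changes of -0.89 and -0.81. ACSL5 went against them, at 3.01, 2.42, 4.00, 6.24 and 6.09 against 8.79, 21.4, 14.4, 12.7 and 18.5 CPM (log2 fold change 1.79 with a standard error of 0.36, adjusted p = 0.00041), as did ACSL4A (log2 fold change 0.37, with overlap). In the oxidation of fatty acids 2 of 13 tested members were higher (15.4%) and 6 lower (46.2%) at 39 weeks, including ACAA2, the last enzyme of the mitochondrial cycle, with a log2 fold change of -0.64, and ACADVL, the first enzyme for very long chains, with a log2 fold change of -0.33, ACAD9 with -0.48 and ACOX3, a peroxisomal oxidase, with -0.42. ACADM and ACADSB rose at log2 fold changes of 0.24 and 0.38, and the call of ACADM ended in 8 of 17 settings.

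**Figure D3:**
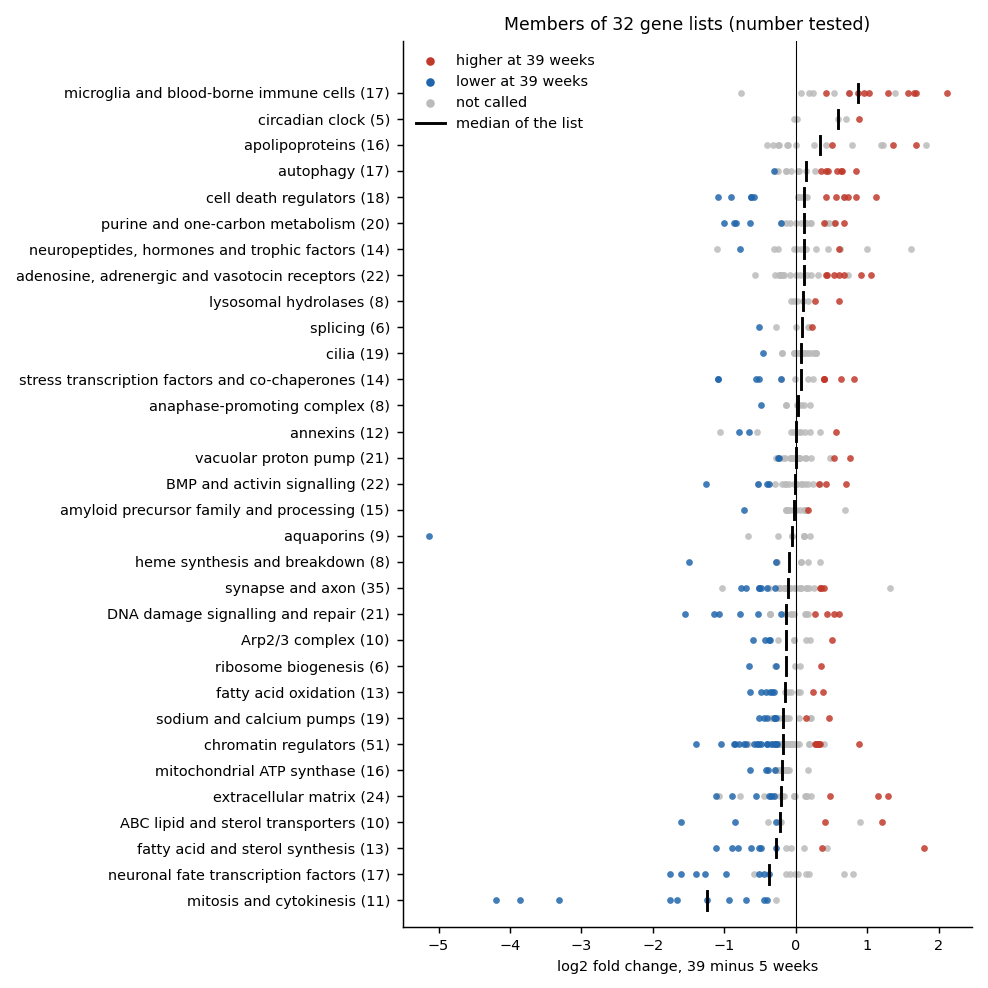
Log2 fold change of 39 minus 5 weeks for each tested member of 32 gene lists, 1 point a gene, with the number tested beside the name and the lists ordered by their median (black bar). Red points were called higher, blue points lower, and grey points were not called. The list of mitosis and cytokinesis lies lowest (median -1.24) and that of microglia and blood-borne immune cells highest (median 0.87).

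For each list with 0 edgeR calls in a direction DESeq2 called 0 as well, except 1 member higher in the list of cilia. At an unadjusted p under 0.05 edgeR gave 1 member higher among the neuronal fate factors, the anaphase-promoting complex, cilia and pineal markers, 1 lower among the receptors, and 0 in the other such lists.

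In the extracellular matrix the 2 aggrecans and brevican, proteoglycans that bind hyaluronan in perineuronal nets, moved apart. ACANA was at 59.7, 70.7, 55.9, 59.7 and 71.6 CPM at 5 weeks and 167, 107, 206, 153 and 143 CPM at 39 weeks (log2 fold change 1.29 with a standard error of 0.22, adjusted p = 9.4e-05) and ACANB at 15.9 to 18.7 against 24.9 to 48.4 CPM (log2 fold change 1.15 with a standard error of 0.18, adjusted p = 3e-05). BCAN, the brevican that glia make, was at 369, 366, 351, 352 and 354 against 204, 142, 228, 142 and 249 CPM (log2 fold change -0.89 with a standard error of 0.21, adjusted p = 0.0017), and its spread was far wider among old than among young brains. BCAN (2 OF 2), a second contig, missed the threshold (adjusted p = 0.15). Of the proteases and collagen-binding genes, BMP1A, a procollagen protease, rose (log2 fold change 0.48), AEBP1 (2 OF 2) fell (log2 fold change -0.55), and ADAMTS12, a metalloprotease, fell from 18.5 ± 1.11 to 8.52 ± 3.12 CPM (log2 fold change -1.11). In the whole list 3 of 24 tested members were higher (12.5%) and 6 lower (25.0%) at 39 weeks, with a median of -0.20, and without the w0w1 libraries 2 were higher and 3 lower.

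Signals of the BMP and activin family, growth factors that act on neural progenitors, held calls in no larger share than all genes in either direction. Here 3 of 22 tested members were higher (13.6%) and 4 lower (18.2%) at 39 weeks, with a median of -0.01, or 5 higher when the 10 libraries were fitted alone. The ligand BMP3 fell from 7.28 ± 1.29 to 3.04 ± 0.655 CPM (log2 fold change -1.25 with a standard error of 0.25, adjusted p = 0.00046). Of the receptors, ACVR2A, ACVR1B and ACVR2B (2 OF 2) fell at log2 fold changes of -0.53, -0.40 and -0.38. ACVR1 and BMPR1BA rose at log2 fold changes of 0.42 and 0.70, and ACVR1L with 0.32. BMPR1BB, at 325 ± 18.5 against 365 ± 10.7 CPM, and BMPR2, at 171 ± 12.2 against 155 ± 7.58 CPM, missed the threshold (adjusted p = 0.1 and 0.061).

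Of 35 tested genes of the synapse and axon 3 were higher (8.57%) and 7 lower (20.0%) at 39 weeks, and the median was -0.11. The share that fell was near that of all genes, and the share that rose was below that of all genes. BASP1, a membrane protein of growth cones and terminals, was the member with the largest loss in CPM, at 1209, 1030.3, 1234, 1031 and 1054 CPM at 5 weeks and 746, 707, 819, 714 and 893 CPM at 39 weeks (log2 fold change -0.52 with a standard error of 0.12, adjusted p = 0.0014). ACHE, acetylcholinesterase, was at 179 to 217 against 127 to 171 CPM (log2 fold change -0.40). Of the C1q-like synaptic ligands, C1QL4 (1 OF 2), C1QL2 and C1QL4 (2 OF 2) fell at log2 fold changes of -0.76, -0.69 and -0.49, and the call of C1QL2 ended without the w0w1 libraries. BRSK1 (2 OF 2), a kinase of neuronal polarity, fell with a log2 fold change of -0.51 and APBA2 with -0.29. BEGAIN (1 OF 2), APBA1 and ATCAYA rose at log2 fold changes of 0.39, 0.35 and 0.34. The contig ATCAY (2 OF 2), of related name, was also higher but is not in this list and is given below. BSN (1 OF 2), the active zone scaffold bassoon, was at 369 ± 137 against 338 ± 49.7 CPM and ASTN1 at 346 ± 12.0 against 326 ± 24.6 CPM, and both missed the threshold.

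Ion pumps of the membrane keep the gradients on which neurons fire, and 2 of 19 tested members were higher (10.5%) and 6 lower (31.6%) at 39 weeks in their list, or 3 lower without JM15. None was called higher without JM100, JM1, JM12 or the w0w1 libraries. ATP1A3B, the sodium pump subunit of neurons, was at 1851, 1780.2, 2030.5, 1694 and 1702 CPM in young and 1639.7, 1344, 1536, 1190.2 and 1622 CPM in old brains (log2 fold change -0.30 with a standard error of 0.10, adjusted p = 0.023), 1 of the largest losses in CPM among the named genes. Its call ended in 4 of 17 settings, when JM103, JM12, JM15 or the w0w1 libraries were left out. The beta subunit ATP1B3A was at 556 to 703 against 429 to 498 CPM (log2 fold change -0.40 with a standard error of 0.10, adjusted p = 0.0037) and its call held in all 17. ATP1A1B and ATP1A3A were lower at log2 fold changes of -0.29 and -0.27, and both calls ended without JM103 or JM15, that of ATP1A1B also without JM100. The calcium pump of the endoplasmic reticulum had 2 contigs that differed, with ATP2A2B lower (log2 fold change -0.44) and ATP2A2 (2 OF 2) higher (log2 fold change 0.47) with JM1 and JM12 at 264 and 285 CPM, where the other old brains were at 134 to 165, a call that ended in 6 settings. The other member called higher, the sodium pump subunit ATP1B2 (1 OF 2), had a log2 fold change of 0.15, and its call ended in 13 of 17 settings. ATP2B4, a plasma membrane calcium pump, fell with a log2 fold change of -0.51.

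For the mitochondrial ATP synthase 0 of 16 tested members were higher and 4 lower (25.0%) at 39 weeks, with a median of -0.20. ATP5B, the catalytic beta subunit, was at 1137, 1006, 1277, 982 and 806 against 909.5, 778, 822, 668 and 786 CPM (log2 fold change -0.39, adjusted p = 0.019), and ATP5A1, the alpha subunit, at 692 to 946 against 606 to 687 CPM (log2 fold change -0.29, adjusted p = 0.027). ATP5G3 (2 OF 2) and ATP5IB fell at log2 fold changes of -0.64 and -0.42. The calls of ATP5B and ATP5A1 ended without JM103 or JM15, which left 2 members lower, that of ATP5A1 also without JM12, and without JM103 1 was called higher. The vacuolar proton pump, which acidifies lysosomes and synaptic vesicles, held few calls, with 2 of 21 tested members higher (9.52%) and 2 lower (9.52%) and a median of 0.00. ATP6AP1 (2 OF 2) and ATP6V0E1 were higher (log2 fold change 0.76 and 0.54) and ATP6V0B and ATP6V1A (2 OF 2) lower (log2 fold change -0.25 and -0.23). These calls ended in 4, 3, 1 and 7 of 17 settings, in that order. The abundant subunits ATP6V0CA and ATP6V0A1B were at 689.8 ± 54.4 against 673 ± 35.2 CPM and at 634 ± 29.0 against 633 ± 36.1 CPM (adjusted p = 0.79 and 0.98).

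Of the genes of autophagy, which delivers cell contents to the lysosome, 7 of 17 tested members were higher (41.2%) and 1 lower (5.88%) at 39 weeks, with a median of 0.15, and 7 to 8 were called higher in the settings other than the test against 1.5-fold. BECN1, a subunit of the lipid kinase complex that starts the membrane, was at 44.7, 43.0, 55.0, 48.7 and 48.3 CPM at 5 weeks and 66.9, 75.5, 70.4, 72.4 and 72.7 CPM at 39 weeks (log2 fold change 0.58 with a standard error of 0.08, adjusted p = 6.7e-06). ATG13, of the initiating kinase complex, was at 36.3 to 43.2 against 58.5 to 71.1 CPM (log2 fold change 0.65 with a standard error of 0.09, adjusted p = 8.9e-06), and the protease ATG4D (2 OF 2) at 13.8 to 20.1 against 27.1 to 34.1 CPM (log2 fold change 0.85 with a standard error of 0.12, adjusted p = 9.4e-06). ATG9A, the membrane-spanning scramblase, rose with a log2 fold change of 0.45, the lipid transfer protein ATG2A with 0.64, ATG10 with 0.43 and ATG16L1 with 0.35, whereas ATG9B fell with a log2 fold change of -0.30, a call that ended in 5 of 17 settings. ATG2B and ATG7 were at 118 ± 13.5 against 142 ± 17.5 CPM and at 118 ± 15.3 against 99.6 ± 12.8 CPM and missed the threshold. Of 8 lysosomal hydrolases 2 were higher (25.0%, against 18.2% of all genes) and 0 lower, with a median of 0.10, and 1 to 2 were called higher over the settings. These were ASAH1, acid ceramidase (log2 fold change 0.61, adjusted p = 0.00065), and ARSA, arylsulfatase A (log2 fold change 0.27, adjusted p = 0.046), whose call ended in 8 of 17 settings.

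In the list of stress transcription factors and co-chaperones 5 of 14 tested members were higher (35.7%) and 5 lower (35.7%) at 39 weeks. Those that fell include 3 genes of the response to missing amino acids. ATF5 (1 OF 2) was at 48.5, 45.1, 59.0, 48.8 and 48.4 against 18.3, 20.6, 29.0, 21.7 and 27.3 CPM (log2 fold change -1.09 with a standard error of 0.14, adjusted p = 2.5e-06). ASNS, asparagine synthetase and a classic target of ATF4, was at 34.1, 33.9, 30.5, 31.7 and 27.3 against 13.5, 15.7, 15.0, 15.4 and 14.05 CPM (log2 fold change -1.09 with a standard error of 0.14, adjusted p = 1.6e-06). ATF4 (1 OF 2) itself fell with a log2 fold change of -0.51, whereas its other copy ATF4B2 rose with a log2 fold change of 0.40, with overlap and with the call lost in 7 of 17 settings. BAG3, the co-chaperone of selective autophagy, was at 21.0 to 28.6 against 33.8 to 42.3 CPM (log2 fold change 0.63 with a standard error of 0.10, adjusted p = 3.6e-05). ATF3, an immediate response factor, rose with a log2 fold change of 0.81, a call that ended in 4 of 17 settings, and BAG5 fell with a log2 fold change of -0.56. The number called higher was 2 without JM100 or JM12 and 3 without JM101, JM97 or the w0w1 libraries.

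Of the regulators of cell death, 6 of 18 tested members were higher (33.3%) and 5 lower (27.8%) at 39 weeks. The mitochondrial proteins BNIP3 and BNIP3L, receptors for the removal of mitochondria that respond to low oxygen, rose. BNIP3 was at 73.5, 78.4, 95.9, 79.8 and 88.0 CPM at 5 weeks and 124, 138, 137, 140.2 and 128 CPM at 39 weeks (log2 fold change 0.68 with a standard error of 0.11, adjusted p = 2.8e-05) and BNIP3L (2 OF 2) at 85.8 to 119 against 141 to 191 CPM (log2 fold change 0.73 with a standard error of 0.10, adjusted p = 8.6e-06). BNIP3L (1 OF 2) was at 157, 114, 214, 117 and 158 against 387, 429, 208, 342 and 290.1 CPM (log2 fold change 1.12 with a standard error of 0.17, adjusted p = 1.5e-05), and only the old brain JM13 fell within the young range. BBC3, the death-promoting protein PUMA, was at 6.84 to 13.5 against 14.9 to 21.3 CPM (log2 fold change 0.84 with a standard error of 0.24, adjusted p = 0.0082). APAF1, the core of the apoptosome, was lower, at 29.0, 20.2, 25.5, 23.6 and 23.5 against 7.88, 10.3, 13.5, 12.9 and 12.6 CPM (log2 fold change -1.09 with a standard error of 0.14, adjusted p = 1.7e-06), as were BIRC6, an inhibitor of apoptosis (log2 fold change -0.90), AIFM1 (log2 fold change -0.58) and the BCL2 relatives BCL2L10 and BAD (2 OF 2) (log2 fold changes -0.63 and -0.63).

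Of the receptors for adenosine, noradrenaline and vasotocin 7 of 22 tested members were higher (31.8%) and 0 lower at 39 weeks. Without JM18, or with the 10 libraries fitted alone, 1 was lower. The number higher was 5 without the w0w1 libraries and 8 with the 10 libraries alone. The beta-adrenergic receptors ADRB2A and ADRB1 rose most. ADRB2A was at 10.1, 12.6, 12.7, 13.6 and 10.8 against 26.8, 35.1, 17.4, 26.1 and 18.4 CPM (log2 fold change 1.05 with a standard error of 0.21, adjusted p = 0.00047) and ADRB1 at 17.5, 16.7, 16.1, 18.3 and 15.7 against 39.9, 40.0, 22.0, 30.6 and 25.4 CPM (log2 fold change 0.91 with a standard error of 0.16, adjusted p = 0.00011), and in both JM1, JM12 and JM15 were the highest old brains. ADRA2DA, an alpha-2 receptor, rose with a log2 fold change of 0.60, ADRA2A with 0.44, ADRA1B (2 OF 2) with 0.43, the adenosine receptor ADORA2B with 0.53 and the vasotocin receptor AVPR1A (2 OF 2) with 0.68. ADRA2B, at 44.1 ± 2.93 against 37.9 ± 2.54 CPM, missed the threshold (adjusted p = 0.1). Among 14 neuropeptides, hormones and trophic factors 1 was higher (7.14%) and 1 lower (7.14%). These were the C-type natriuretic peptide contig ANFC1_ORYLA (146 to 201 against 216 to 283 CPM, log2 fold change 0.61 with a standard error of 0.12, adjusted p = 0.00029) and the epidermal growth factor relative BTC (log2 fold change -0.78). ADCYAP1B, the peptide PACAP, was at 547 ± 46.3 against 662 ± 65.4 CPM (adjusted p = 0.086), and BDNF was not called either (log2 fold change 0.45, adjusted p = 0.096).

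AQP8 (2 OF 3), a water channel, was near 0 in old brains. Its mean was already low at the ages between, at 0.132, 0.476 and 0.0936 CPM at 12, 20 and 27 weeks. It was at 6.67, 2.30, 3.88, 0.973 and 1.66 CPM in young brains and at 0.130, 0, 0.0544, 0.125 and 0.0834 CPM in old ones (log2 fold change -5.14 with a standard error of 0.82, adjusted p = 3.8e-05), and the young brains differed widely among themselves. The other 8 aquaporins tested were not called, among them AQP1 (adjusted p = 0.9) and AQP4, the water channel of astroglia in mammals (adjusted p = 0.67). In the heme list 2 of 8 were lower (25.0%), the erythroid ALAS2 given above and the transporter ABCB6 (log2 fold change -0.28, a call that ended without JM101). Without JM13 1 was called higher. ALAS1, the enzyme of other cells, was at 2288 ± 121 against 2582 ± 291 CPM (adjusted p = 0.3). Of the annexins ANXA5 (1 OF 2) rose (log2 fold change 0.56) and ANXA13 and ANXA4 fell (log2 fold changes -0.80 and -0.65), out of 12 (8.33% higher and 16.7% lower).

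In purine and one-carbon metabolism 3 of 20 tested members were higher (15.0%) and 5 lower (25.0%) at 39 weeks. AHCY, which clears S-adenosylhomocysteine, was at 140.4, 112, 136, 105 and 102 against 70.6, 58.5, 59.3, 70.5 and 73.4 CPM (log2 fold change -0.84 with a standard error of 0.12, adjusted p = 9.1e-06), and ATIC, of the last steps of purine synthesis, fell with a log2 fold change of -0.64. APRT and ADA, of purine salvage and breakdown, fell at log2 fold changes of -0.87 and -1.01. ADK and ADSS rose at log2 fold changes of 0.40 and 0.55, and ALDH1L1, a folate enzyme that marks astroglia in mammals, with 0.67. The calls of ADSS and ALDH1L1 ended without the w0w1 libraries, which left 1 higher, and that of ALDH1L1 also without JM100 or JM15. Of the Arp2/3 complex, which branches actin, 1 of 10 tested members was higher (10.0%), 4 were lower (40.0%) and 5 were not called, with a median of -0.14. ACTR3, ARPC5B, ARPC2 and ARPC1A fell at log2 fold changes of -0.60, -0.43, -0.37 and -0.36. ARPC1B, found mainly in blood cells in mammals, was higher (log2 fold change 0.51) with JM15 again highest at 56.2 CPM, a call that ended without JM100, JM96 or JM15.

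Several lists held few calls or few members, and their counts often changed by 1 between settings. The shares higher and lower were 0% and 5.26% for cilia and 6.67% and 6.67% for the amyloid list. They were 16.7% and 33.3% for ribosome biogenesis, 16.7% and 16.7% for splicing and 20.0% and 0% for the clock. Of these only ribosome biogenesis, with 6 members, held a larger share lower than the 18.7% of all genes. Of 19 tested genes of cilia 1 was called, BBS7 of the BBSome (log2 fold change -0.46, adjusted p = 0.00038), and of 15 genes of the amyloid precursor family and its processing 2, APLP2 (log2 fold change 0.17) and ADAM17B (log2 fold change -0.73). APLP was at 1404 ± 54.3 against 1560.0 ± 88.2 CPM and missed the threshold (adjusted p = 0.07). Among 6 genes of ribosome biogenesis BMS1L and BYSL fell (log2 fold changes -0.66 and -0.27) and BRIX1 rose (log2 fold change 0.35). Among 6 of splicing AQR, an intron-binding helicase, fell (log2 fold change -0.52) and BUD13 rose (log2 fold change 0.23). The calls of BRIX1 and BUD13 ended in 6 and 4 of 17 settings. Of 5 clock genes BHLHE40, a repressor that also responds to low oxygen, was higher, at 137, 191, 195, 189.8 and 174 against 221, 339, 424, 256 and 387 CPM (log2 fold change 0.88 with a standard error of 0.20, adjusted p = 0.0014). BHLHE41, its relative, did not overlap between the ages at 41.9 to 73.2 against 77.0 to 113 CPM but missed the threshold (adjusted p = 0.097), except with the 10 libraries fitted alone (adjusted p = 0.0077), where 3 clock genes were called higher. That count was 2 by DESeq2 and without JM13.

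Some of the largest changes among the named genes lay outside the lists. BEST3, a chloride channel of the bestrophin family, was at 0.656, 0.648, 2.06, 5.04 and 0.876 CPM at 5 weeks and 12.8, 12.5, 6.85, 8.91 and 5.84 CPM at 39 weeks (log2 fold change 2.34 with a standard error of 0.48, adjusted p = 0.00054), with JM96 closest to the old brains. BDKRB2 (1 OF 4), a bradykinin receptor, was at 0.171 to 0.744 against 0.781 to 1.62 CPM (log2 fold change 1.32, adjusted p = 0.025), and this call ended without JM100, JM103 or JM15. ARG1, an arginase, rose from 51.1 ± 8.47 to 107 ± 26.9 CPM (log2 fold change 1.07), ADAD2 from 2.64 ± 0.766 to 6.31 ± 0.961 CPM (log2 fold change 1.26) and ARMC3 from 0.975 ± 0.452 to 2.16 ± 0.468 CPM (log2 fold change 1.12), the last call ending without the w0w1 libraries. ALDOCB, a brain aldolase of glycolysis, was among the named genes with the largest gain in CPM. It was at 1874, 2031, 2211, 1915 and 1927 against 2485, 2327, 2459, 2212 and 2531 CPM, although its fold was small (log2 fold change 0.27 with a standard error of 0.08, adjusted p = 0.007). ATCAY (2 OF 2), named after caytaxin of cerebellar neurons, was at 159, 138, 199, 73.1 and 178 against 337, 367, 234, 315 and 230.2 CPM (log2 fold change 0.99 with a standard error of 0.22, adjusted p = 0.0013).

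On the side of the decreases, ANKLE1, an endonuclease with ankyrin repeats, was at 16.0, 9.31, 10.9, 9.27 and 11.3 CPM in young and 1.04, 1.39, 1.52, 1.21 and 0.875 CPM in old brains (log2 fold change -3.23 with a standard error of 0.28, adjusted p = 1.2e-08). ARHGAP19 (2 OF 2), a GTPase-activating protein, was at 1.59 to 3.06 against 0.109 to 0.417 CPM (log2 fold change -2.92 with a standard error of 0.42, adjusted p = 8.9e-06) and ARHGEF15 (1 OF 2), a guanine nucleotide exchange factor, at 16.5 to 29.1 against 4.47 to 5.87 CPM (log2 fold change -2.0 with a standard error of 0.18, adjusted p = 1.7e-08). BCL6B, a transcriptional repressor, was at 33.3, 31.1, 28.2, 25.5 and 20.1 against 4.36, 3.65, 10.9, 8.87 and 9.09 CPM (log2 fold change -1.89 with a standard error of 0.28, adjusted p = 1.6e-05), and ANKRD10A fell from 7.35 ± 0.687 to 2.09 ± 0.228 CPM (log2 fold change -1.81). None of these overlapped between the ages.

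The 3 ages between show when along the series these levels were reached, as a description. Mean ASPM at 12, 20 and 27 weeks was 3.86, 1.59 and 2.14 CPM, that of ANLN 5.34, 3.41 and 7.72 CPM and that of BRIP1 3.67, 3.23 and 3.40 CPM. In CPM, all were nearer to the level of the old than of the young brains. ABCA1B at 64.7, 63.6 and 50.5 CPM and AURKA at 3.39, 2.76 and 2.44 CPM did the same. On a log scale, however, ASPM at 12 weeks and ANLN at 27 weeks lay nearer to the young level. Both were lower still at 39 weeks, at 0.842 and 2.21 CPM. ABCA7 at 24.8, 19.2 and 20.9 CPM, BCL11B (2 OF 2) at 30.4, 28.2 and 26.2 CPM and ACVR2A at 61.6, 59.8 and 58.8 CPM lay nearer to the young level at 12 weeks. Of the genes that rose, ABCA1A at 394, 514 and 586 CPM and ASPA at 54.5, 62.0 and 46.7 CPM lay nearer to the old level from 12 weeks on. APOEB at 398, 582 and 583 CPM and APCS at 15.0, 25.5 and 19.1 CPM stayed between the 2 ends.

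**Figure D4:**
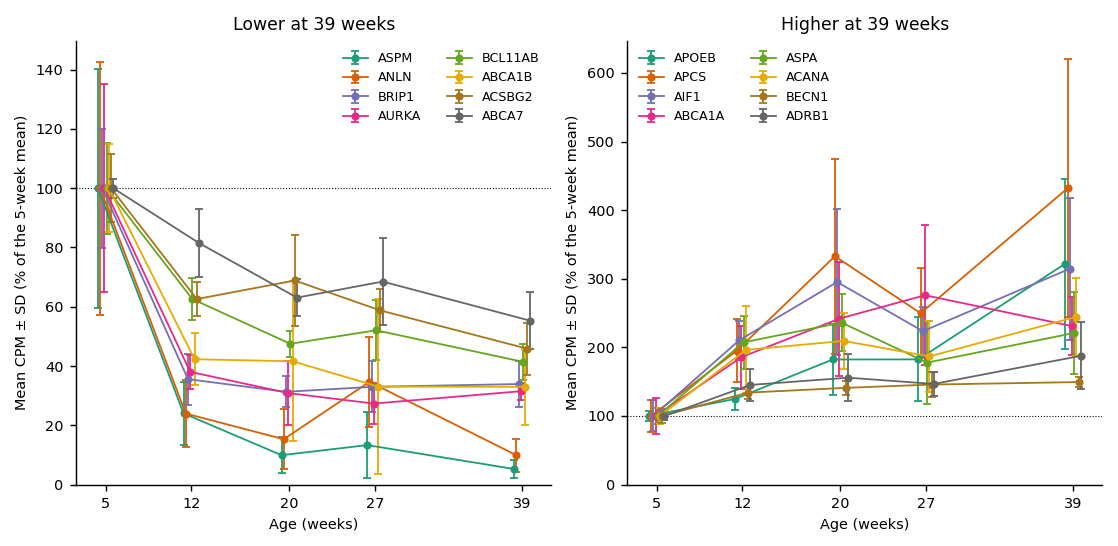
Mean CPM ± SD at 5, 12, 20, 27 and 39 weeks (n = 5 brains each), as a percentage of the 5-week mean of each gene, for 8 genes lower (left) and 8 genes higher (right) at 39 weeks. On this linear axis ASPM, ANLN, BRIP1 and AURKA lie nearer to their old than to their young level from 12 weeks on. APOEB and APCS have their highest mean at 39 weeks, where the bars are widest.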

How the data were processed

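RNA of whole male brains was sequenced as 50-base single reads, and the authors mapped uniquely placed reads to transcript contigs of N. furzeri by means of Bowtie and deposited raw counts per contig, with replicates not pooled. Per the submitters' processing notes CASAVA, TopHat2 2.0.6 and featureCounts 1.4.3-p1 were used as well, with no role given. The genome build is not given in the sources used here. Deposited RPKM values, scaled by the authors for contig length and mapped reads, were used only to pair contigs with gene names: 1994 of 1999 names in the held part of the study's gene table were paired by their shares, within a tolerance of 3e-06. These names are best sequence matches, and contigs named as copies, such as 1 OF 2, may split the reads of near-identical genes. Whether reads were counted by strand is not stated.

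Counts of all 25 libraries were filtered (filterByExpr), scaled by TMM and fitted with edgeR 4.0.16 in R 4.3.3 by quasi-likelihood with age as the factor, so that the 5 ages share 1 estimate of spread, and 39 minus 5 weeks was tested with Benjamini-Hochberg adjustment over 16484 genes. Total counts and top contig shares were compared by exact permutation tests over 252 splits. Reads carried no molecular identifiers, so that counts are not counts of independent molecules, and p-values measure the spread between animals of 1 sampling per age. On data simulated for this comparison with 16441 genes, 88 of 100 genes changed 2-fold and 54 of 100 changed 1.5-fold were recovered, with 10 false calls of 152. Far fewer genes were changed there than were called in the data, so that these shares need not hold for the data.

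The members and the gene lists were chosen with earlier results of these data known, and the lists hold only names from A to C1QL4. Genes were named by rule: the 15 largest log2 fold changes in each direction among called genes with a mean of at least 1.0 CPM at the higher age and no overlap, the 5 largest CPM changes in each direction, and from each list up to 6 called members and up to 2 that were not, of which those that the text describes are given. A gene that this rule named is not reported here. MEX3A was taken by its identifier. Other genes, such as BUB1, BUB1B, BUB3, BEGAIN (1 OF 2), APBA1, ATCAYA, ATG9B and ATP1B2 (1 OF 2), were added after their values were seen. Alternatives were RLE and upper quartile factors, no filter, DESeq2 1.42.0, the 10 libraries alone, a factor for the w0w1 libraries, the 6 of them left out, a test against 1.5-fold, each library left out, and a later count table of gene models that the study does not describe. Figures were drawn with matplotlib 3.10.9.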

Additional observations from a re-analysis of the deposited data

Results flagged for a closer look

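Among the genes named above, 1 brain stood apart from the other 4 of its age in 25 of 442 groups of 5 by Dixon's test of a gap against the range, where chance gives about 1 in 20 groups. The causes were not tested. The young brain JM103 stood above the others in AMBPL (7.71 CPM where the other brains had 4.58 to 5.03), APBA2 (211 CPM where the other brains had 173 to 183), ATF5 (1 OF 2) (59.0 CPM where the other brains had 45.1 to 48.8), ATP6V0A1B (684 CPM where the other brains had 611 to 629), ATP6V0CA (785 CPM where the other brains had 651 to 681), BMPR1BA (17.0 CPM where the other brains had 14.3 to 15.1) and C1QL4 (2 OF 2) (7.48 CPM where the other brains had 5.04 to 5.48). The old brain JM15 stood above the others in AIF1 (17.7 CPM where the other brains had 8.53 to 10.2), ATP2A1 (18.8 CPM where the other brains had 1.17 to 3.38), ATP6V0E1 (3.79 CPM where the other brains had 2.56 to 2.80), BMPR1BB (383 CPM where the other brains had 357 to 361) and C1QC (33.3 CPM where the other brains had 7.94 to 14.8) and stood below them in ACVR2A (36.1 CPM where the other brains had 46.6 to 50.7) and BRSK1 (2 OF 2) (10.99 CPM where the other brains had 13.99 to 15.0). The young brain JM101 stood above the others in C1QC (8.19 CPM where the other brains had 4.68 to 5.25) and stood below them in ATP6V0E1 (1.24 CPM where the other brains had 2.06 to 2.31) and BATF (5.01 CPM where the other brains had 6.34 to 6.81). The old brain JM18 stood above the others in ALAS2 (20.7 CPM where the other brains had 6.12 to 8.66), ARR3 (1 OF 2) (1.21 CPM where the other brains had 0.567 to 0.708) and BA1 (75.0 CPM where the other brains had 2.14 to 13.1). The young brain JM97 stood above the others in AEBP1 (2 OF 2) (111 CPM where the other brains had 62.9 to 74.3) and stood below them in BUD13 (31.6 CPM where the other brains had 34.6 to 35.6). The old brain JM1 stood above the others in BCAN (2 OF 2) (93.4 CPM where the other brains had 65.2 to 70.2). The young brain JM100 stood above the others in ACLYA (187 CPM where the other brains had 135 to 149.9). The old brain JM12 stood above the others in ASCL1A (8.69 CPM where the other brains had 2.34 to 2.96).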

How the results depend on the processing

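Of 193 called genes named in the text, 142 were called in each of 17 alternatives, 51 lost the call in at least 1 of them, and 0 changed direction. Of 28 named genes that missed the threshold, 12 passed in at least 1 alternative. Against a change of 1.5-fold, 602 genes were called (194 higher, 408 lower), and of the named genes 37. RLE factors gave 6090 calls, upper quartile factors 6081 (3118 higher and 2963 lower, the other way around from 2998 and 3084), no filter 6024, DESeq2 6290, of which 6014 were shared, the 10 libraries alone 5949, and w0w1 as a factor 6045. Without the 6 w0w1 libraries 4827 genes were called, and the later count table gave 7282 of 20169. Leaving out 1 library gave 5072 to 5993 calls, 2264 to 2953 higher and 2654 to 3040 lower, with the fewest in all and the fewest higher without JM100 and the fewest lower without JM15. The median log2 fold change stayed between -0.018 and 0.019.

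Calls that ended without the w0w1 libraries and in no other alternative but the 1.5-fold test were those of ARHGAP25, ACVR1L, ACVR2B (2 OF 2), ADRA2A, BMP1A, BTC and BYSL, beside those given above. That of APLP2 ended without JM100, that of AEBP1 (2 OF 2) without JM97, that of ACAA2 without JM12 or the w0w1 libraries, and that of ATCAYA without JM100 or the w0w1 libraries. The calls of ATRIP, BMI1B, ADRA1B (2 OF 2) and ACSL4A ended without the w0w1 libraries, and also without JM100 or JM15 for ATRIP, JM100 or JM13 for BMI1B, JM100 or JM12 for ADRA1B (2 OF 2), and JM1 or JM12 for ACSL4A. Where a library left out ended a call, the cause was not tested. With each library left out in turn, the difference of mean total counts ran from 547502 to 2574555 (exact permutation p = 0.23 to 0.778). No paired analysis was possible because the titles number the animals and no number is shared between the ages. The simulation fitted 25 libraries together and compared 5 against 5 of them. There 54 of 100 genes changed 1.5-fold were recovered, and smaller changes were not simulated. Far fewer genes were changed there than were called in the data, so that this share need not hold for the data. A gene not called is therefore not shown to be unchanged.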
